A study of Mus musculus with 9 samples.

Results

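The genes described here are 34 mouse genes of sterol and fatty acid synthesis, chosen by name: 18 enzymes that make cholesterol from acetyl-CoA, 8 genes that make, elongate or desaturate fatty acids, 5 regulators of the SREBP transcription factors, and 3 genes of sterol transport and turnover. A gene counted as measured when at least 1 probe set of the array carried its symbol and no other, which held for 33 of the 34 genes, with 76 probe sets. The cytosolic acetoacetyl-CoA thiolase Acat2 had no such probe set. Each gene was represented by whichever of its probe sets averaged highest across the 9 arrays, and the whole table was treated in the same way, giving 18193 genes from 45101 probe sets.

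RNA came from cultured pluripotent cells of strain C57BL/6 in 3 groups of 3 arrays: ESCs, EpiSCs with IWP2 and EpiSCs with vehicle. ESCs are naive embryonic stem cells, and EpiSCs are primed stem cells that resemble the postimplantation epiblast. IWP2 inhibits Porcupine, the acyltransferase that Wnt proteins need for their secretion, so the EpiSC groups address what endogenous Wnt does in these cells. Both EpiSC groups grew in N2B27 with 20 ng/ml Activin A and 12 ng/ml bFGF on plates coated with gelatine and FCS, while ESCs grew in N2B27 with 1000 U/ml LIF and 250 ng/ml Wnt3a on gelatine alone. Cell type, medium and coating therefore cannot be told apart in any comparison with ESCs. Xist and Y-linked signals also differed between ESCs and both EpiSC groups (values given beside Ebp), so the lines may differ in sex, which cannot be told apart from cell type either. The sources used here do not give the dose or duration of IWP2 or say what the vehicle was, and cultures that received Wnt3a after IWP2 are not analysed here.

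Cholesterol is built from acetyl-CoA through mevalonate and isoprenoid diphosphates to squalene, which is closed into lanosterol and trimmed to cholesterol. The enzymes are controlled together: when sterols in the endoplasmic reticulum are low, SCAP carries SREBP to the Golgi, where it is cut and freed to act in the nucleus, and when sterols are high, INSIG proteins hold SCAP back. SREBP2 acts mainly on sterol genes and SREBP1 mainly on fatty acid genes, and Insig1 is itself a target. Sterol excess acts through LXR receptors, whose targets include the cholesterol exporter Abca1 and Mylip, a ubiquitin ligase that has lipoprotein receptors degraded.

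All values below are log2 signals or differences of log2 signals, and a difference of 1 is a doubling. Genes were called at an adjusted p under 0.05 in limma fitted to all 9 arrays, with Benjamini-Hochberg adjustment over the 18193 genes. The lower quartile of all values, 3.72, marks signals at the floor of the array. Naive markers were higher in ESCs than in vehicle EpiSCs for 8 of 8 genes, and 7 of 8 primed markers were lower, so the arrays carried the labelled cell types. The replicates are called biological by the labels, without saying how the cultures were separated.

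The vehicle arrays did not lie together for the sterol enzymes. Vehicle replicate 2 was the highest of the 3 vehicle arrays for 16 of 17 sterol enzymes (94.1%), against 34.9% of all genes, and it lay 0.182 above the mean of the other vehicle arrays. For the fatty acid genes it was the highest for 6 of 8. Values without this array are given beside some counts, medians and single genes, and not beside every difference from vehicle.

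In EpiSCs with IWP2 the sterol enzymes were mostly higher than in EpiSCs with vehicle. Of the 17 measured enzymes 13 rose, 1 fell and 3 did not pass the test, where 16.6% of all genes were called higher and 16.8% lower. The median difference was 0.56 for the sterol enzymes and 0.03 for all genes. Without vehicle replicate 2, 14 enzymes were higher, 1 was lower and the median was 0.68. The fatty acid genes had 6 members that rose and 2 that fell, with a median difference of 0.27, or 0.32 without that array. Over all members 22 rose, 6 fell and 5 did not pass the test, so 28 of 33 were called, against 33.5% of all genes. Differences of at least 2-fold were called higher for 3 members (Mvd, Insig1 and Elovl6; 0.901% of all genes) and lower for 2 (Abca1 and Mylip; 2.81% of all genes). The groups did not overlap for 29 of the 33 members, and 47% of all genes had no overlap.

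**Figure D1:**
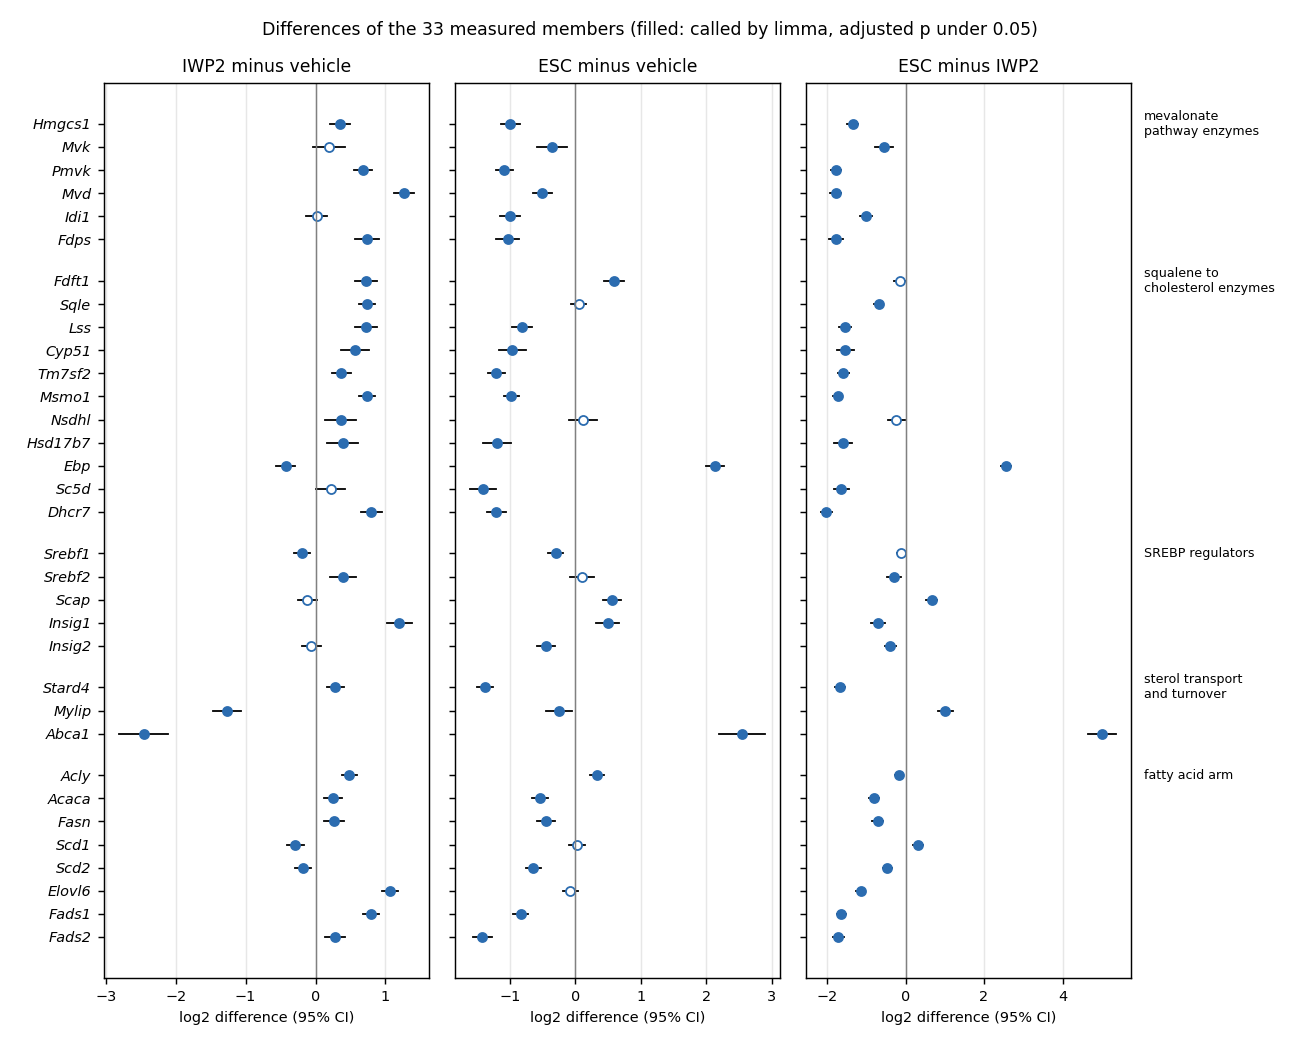
Log2 difference of each measured member (rows, by role) in IWP2 minus vehicle, ESC minus vehicle and ESC minus IWP2. Points are limma estimates from 3 arrays per group, bars are 95% confidence intervals and filled points are called. Most sterol enzymes lie right of 0 in the first panel and left of 0 in the other panels, with Ebp on the opposite side in each.

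The promoters of 4 members are shown because, among members with a window in the RefSeq table, they had the smallest p of the sterol and SREBP genes that rose with IWP2 (Mvd, Msmo1 and Insig1) or were the sterol enzyme that fell (Ebp). Hmgcs1 and Abca1 were added after their values were seen, Hmgcs1 as the member whose window holds a sterol regulatory element and Abca1 as the member with the largest change. Each window runs from 250 bases before to 50 bases after the annotated start in RefSeq on GRCm38.p6, written 5′ to 3′ along the gene. The windows are chr8:122443373-122443672 (minus strand) for Mvd, chr8:64733529-64733828 (minus strand) for Msmo1, chr5:28071162-28071461 (plus strand) for Insig1, chrX:8193463-8193762 (minus strand) for Ebp, chr13:119690101-119690400 (plus strand) for Hmgcs1 and chr4:53159846-53160145 (minus strand) for Abca1. Capitals mark matches on either strand to 4 motifs: the sterol regulatory element TCACNCCAC, the NF-Y box CCAAT, the Sp1 box GGGCGG and the E-box CACGTG.
Mvd: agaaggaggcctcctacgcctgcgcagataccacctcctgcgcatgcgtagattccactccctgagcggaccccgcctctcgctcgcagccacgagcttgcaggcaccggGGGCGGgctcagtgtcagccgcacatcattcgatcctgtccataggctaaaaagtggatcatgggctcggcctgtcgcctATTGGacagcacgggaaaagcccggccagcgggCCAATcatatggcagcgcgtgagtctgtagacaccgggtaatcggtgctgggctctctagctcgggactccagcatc
Msmo1: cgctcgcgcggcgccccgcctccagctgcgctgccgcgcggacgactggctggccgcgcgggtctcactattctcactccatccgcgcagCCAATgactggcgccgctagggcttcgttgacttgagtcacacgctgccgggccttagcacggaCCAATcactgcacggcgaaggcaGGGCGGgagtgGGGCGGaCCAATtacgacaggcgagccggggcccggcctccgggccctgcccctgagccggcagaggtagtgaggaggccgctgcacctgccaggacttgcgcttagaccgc
Insig1: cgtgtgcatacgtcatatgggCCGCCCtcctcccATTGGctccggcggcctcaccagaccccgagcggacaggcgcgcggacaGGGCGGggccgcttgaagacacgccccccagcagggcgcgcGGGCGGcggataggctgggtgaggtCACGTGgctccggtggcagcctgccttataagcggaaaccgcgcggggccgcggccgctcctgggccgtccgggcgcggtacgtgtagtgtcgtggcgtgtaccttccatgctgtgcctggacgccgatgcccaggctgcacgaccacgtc
Ebp: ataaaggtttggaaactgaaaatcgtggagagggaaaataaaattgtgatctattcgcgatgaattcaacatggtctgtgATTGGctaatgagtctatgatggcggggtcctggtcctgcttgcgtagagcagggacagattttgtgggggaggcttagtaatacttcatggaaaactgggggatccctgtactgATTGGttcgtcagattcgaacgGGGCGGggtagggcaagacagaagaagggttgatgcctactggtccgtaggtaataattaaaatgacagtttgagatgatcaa
Hmgcs1: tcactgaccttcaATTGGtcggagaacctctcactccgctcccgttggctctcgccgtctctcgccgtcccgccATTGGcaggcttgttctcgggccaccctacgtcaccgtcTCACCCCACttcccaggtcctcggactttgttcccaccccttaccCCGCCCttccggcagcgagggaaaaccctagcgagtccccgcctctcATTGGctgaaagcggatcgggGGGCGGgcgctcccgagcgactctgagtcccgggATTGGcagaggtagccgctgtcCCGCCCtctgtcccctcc
Abca1: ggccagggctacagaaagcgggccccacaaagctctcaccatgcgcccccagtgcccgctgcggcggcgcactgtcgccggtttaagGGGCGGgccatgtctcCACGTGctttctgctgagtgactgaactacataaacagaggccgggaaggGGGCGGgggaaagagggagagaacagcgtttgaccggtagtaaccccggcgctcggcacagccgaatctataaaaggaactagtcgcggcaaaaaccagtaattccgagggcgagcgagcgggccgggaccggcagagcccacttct

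A CCAAT match lay in 13 of the 15 windows of sterol enzymes (86.7%; Acat2 included), in 2 of 5 windows of fatty acid genes and in 38.2% of the windows of 14452 genes tested on the array. GGGCGG was found in 14 of 15 sterol windows (93.3%), in 2 of 5 fatty acid windows and in 54% of the windows of tested genes. The median GC content was 60.3% in the sterol windows, 67% in the fatty acid windows and 58.7% in those of tested genes. TCACNCCAC occurred in 1 of the 27 windows of members, that of Hmgcs1 at position -137 from the gene's start, and in 1.18% of the windows of tested genes. CACGTG occurred in 5 of 27 windows of members and in 9.02% of those of tested genes. NF-Y and Sp1 are factors known to act with SREBP on sterol promoters. A match describes letters in the window and is not evidence of binding, and its part in the differences was not tested.

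**Figure D2:**
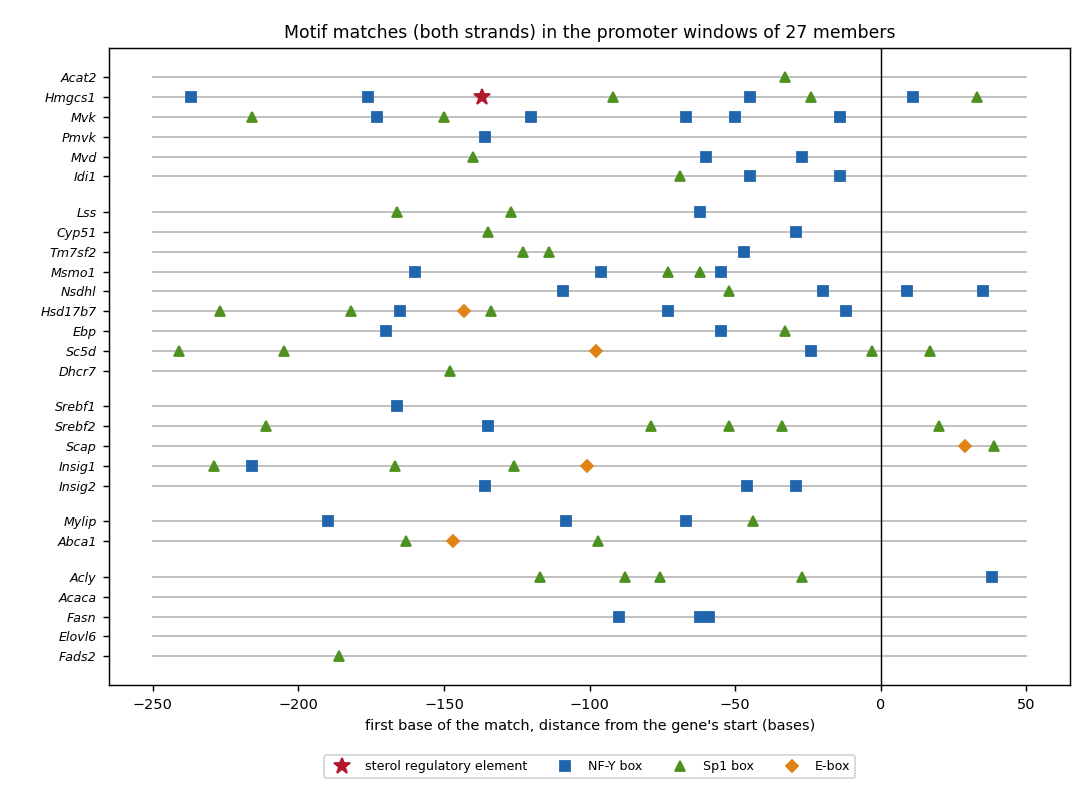
Positions of the motif matches (x axis, bases from the annotated start; the first base of each match) in the first RefSeq promoter window of the 27 members that have one, by role. CCAAT and GGGCGG matches lie in most sterol windows, and the sterol regulatory element is matched only for Hmgcs1.

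Among the mevalonate enzymes, Mvd, the decarboxylase that makes isopentenyl diphosphate, changed most. Its signals were 9.45, 9.35 and 9.45 with IWP2, against 8.08, 8.23 and 8.12 with vehicle. The groups did not overlap, and the difference was 1.27 ± 0.064 (SE, n = 3 each; limma adjusted p = 4.24e-07), a 2.41-fold increase. A further Mvd probe set rose by 0.90. Fdps, which joins isoprene units into farnesyl diphosphate, had 12.41, 12.35 and 12.39 with IWP2, against 11.52, 11.83 and 11.59 with vehicle, a difference of 0.74 (adjusted p = 8.19e-05) with no overlap. The phosphomevalonate kinase Pmvk was higher by 0.68, and Hmgcs1, which makes HMG-CoA, by 0.35. Mevalonate kinase Mvk (0.19, 95% interval -0.04 to 0.42) and the isomerase Idi1 (0.02, interval -0.14 to 0.17) were not called.

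Between squalene and cholesterol 9 of 11 enzymes rose. Dhcr7, the reductase of the last step, had 9.81, 9.71 and 9.79 with IWP2, against 8.96, 9.03 and 8.92 with vehicle. It was higher on every IWP2 array than on any vehicle array, by 0.80 ± 0.065 (SE, n = 3 each; limma adjusted p = 1.19e-05). Msmo1, a methylsterol oxidase, had 12.52, 12.47 and 12.58 with IWP2, against 11.78, 11.81 and 11.77 with vehicle. Here too the arrays separated, with a difference of 0.74 (adjusted p = 4.27e-06). The squalene epoxidase Sqle (0.73), the squalene synthase Fdft1 (0.72) and the lanosterol synthase Lss (0.72) rose by similar amounts. The size for Lss depended on the probe set: a further one (mean 8.19) rose by 1.28 and the dimmest by 0.35. Smaller rises were seen for the lanosterol demethylase Cyp51 (0.56), the ketoreductase Hsd17b7 (0.39), the sterol reductase Tm7sf2 (0.37) and the decarboxylating dehydrogenase Nsdhl (0.36). No further Hsd17b7 probe set was called (0.22, 0.25 and 0.21). The call of Nsdhl was lost without vehicle replicate 1 (adjusted p = 0.0655), vehicle replicate 3 (0.0604), IWP2 replicate 1 (0.0504) or IWP2 replicate 2 (0.0529). The desaturase Sc5d was not called (0.22, adjusted p = 0.096). It was called without vehicle replicate 2 (0.33, adjusted p = 0.00336), the array on which it read 10.37 against 10.03 on both others. With all arrays kept, both dimmer Sc5d probe sets were called higher (0.33, limma adjusted p = 0.00402, and 0.38, limma adjusted p = 0.0188).

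Ebp, the isomerase that moves the double bond of the sterol ring, ran against the other enzymes. Its signals were 8.44, 8.37 and 8.37 with IWP2, against 8.75, 8.93 and 8.78 with vehicle. All IWP2 arrays lay below all vehicle arrays, and Ebp fell by 0.43 (SE 0.060; limma adjusted p = 0.000508). Its promoter also holds CCAAT and GGGCGG matches. Ebp has 1 probe set on the array.

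The regulators moved in different directions. Insig1 had 10.69, 10.61 and 10.73 with IWP2, against 9.59, 9.30 and 9.53 with vehicle. All 3 IWP2 arrays were higher, by 1.20 ± 0.079 (SE, n = 3 each; limma adjusted p = 2.79e-06), and vehicle replicate 2, highest for nearly all sterol enzymes, was the lowest vehicle array for Insig1. Srebf2, which encodes SREBP2, was higher by 0.39 (adjusted p = 0.00444), whereas Srebf1, which encodes SREBP1, fell by 0.19 (adjusted p = 0.0153). The dimmer Srebf2 probe set was not called (0.21, limma adjusted p = 0.0931). The Srebf1 call was lost without IWP2 replicate 3 (adjusted p = 0.0509). Scap (-0.12, interval -0.26 to 0.02) and Insig2 (-0.06, interval -0.20 to 0.08) were not called.

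The transport genes held the largest falls. Abca1 read 4.07, 4.46 and 3.82 with IWP2, against 6.50, 6.84 and 6.39 with vehicle. The groups were far apart, and Abca1 fell by 2.46 (SE 0.16; limma adjusted p = 2.41e-06). The IWP2 mean of 4.11 is near the floor, and such signals compress differences, so the true fall may be larger. The other Abca1 probe sets had means of 4.20 and 2.91 over the 9 arrays and were not called (-0.24 and -0.11). Mylip read 6.00, 6.11 and 6.15 with IWP2, against 7.23, 7.33 and 7.52 with vehicle, and fell by 1.27 (adjusted p = 4.48e-06), with all IWP2 arrays below the vehicle arrays. Stard4, a soluble sterol carrier, was higher by 0.28 (adjusted p = 0.00262).

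In the fatty acid arm Elovl6 and Fads1 changed most. Elovl6, which extends palmitate to stearate, had 11.58, 11.65 and 11.68 with IWP2, against 10.55, 10.61 and 10.55 with vehicle. The difference was 1.06 ± 0.052 (SE, n = 3 each; limma adjusted p = 3.54e-07), with no overlap, and both further Elovl6 probe sets rose by 1.03 and 1.001. Fads1, a desaturase of polyunsaturated chains, had 10.54, 10.56 and 10.58 with IWP2, against 9.79, 9.71 and 9.79 with vehicle, a difference of 0.80 (adjusted p = 2.38e-06) with no overlap. The other desaturase of these chains, Fads2, was higher by 0.28, but neither further Fads2 probe set was called (0.16 and 0.21). Acly, which makes cytosolic acetyl-CoA, rose by 0.49, the fatty acid synthase Fasn by 0.26 and Acaca, which makes malonyl-CoA, by 0.25.

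The stearoyl-CoA desaturases, which make monounsaturated fatty acids, were lower. Scd1 read 10.32, 10.32 and 10.40 with IWP2, against 10.58, 10.71 and 10.62 with vehicle, and fell by 0.29 (limma adjusted p = 0.00308), with no overlap. Scd2 read 13.12, 13.10 and 13.10 with IWP2, against 13.33, 13.30 and 13.25 with vehicle, and fell by 0.18 (adjusted p = 0.0186). The Scd2 call was lost without vehicle replicate 1 (adjusted p = 0.0643) or IWP2 replicate 2 (0.0583).

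**Figure D3:**
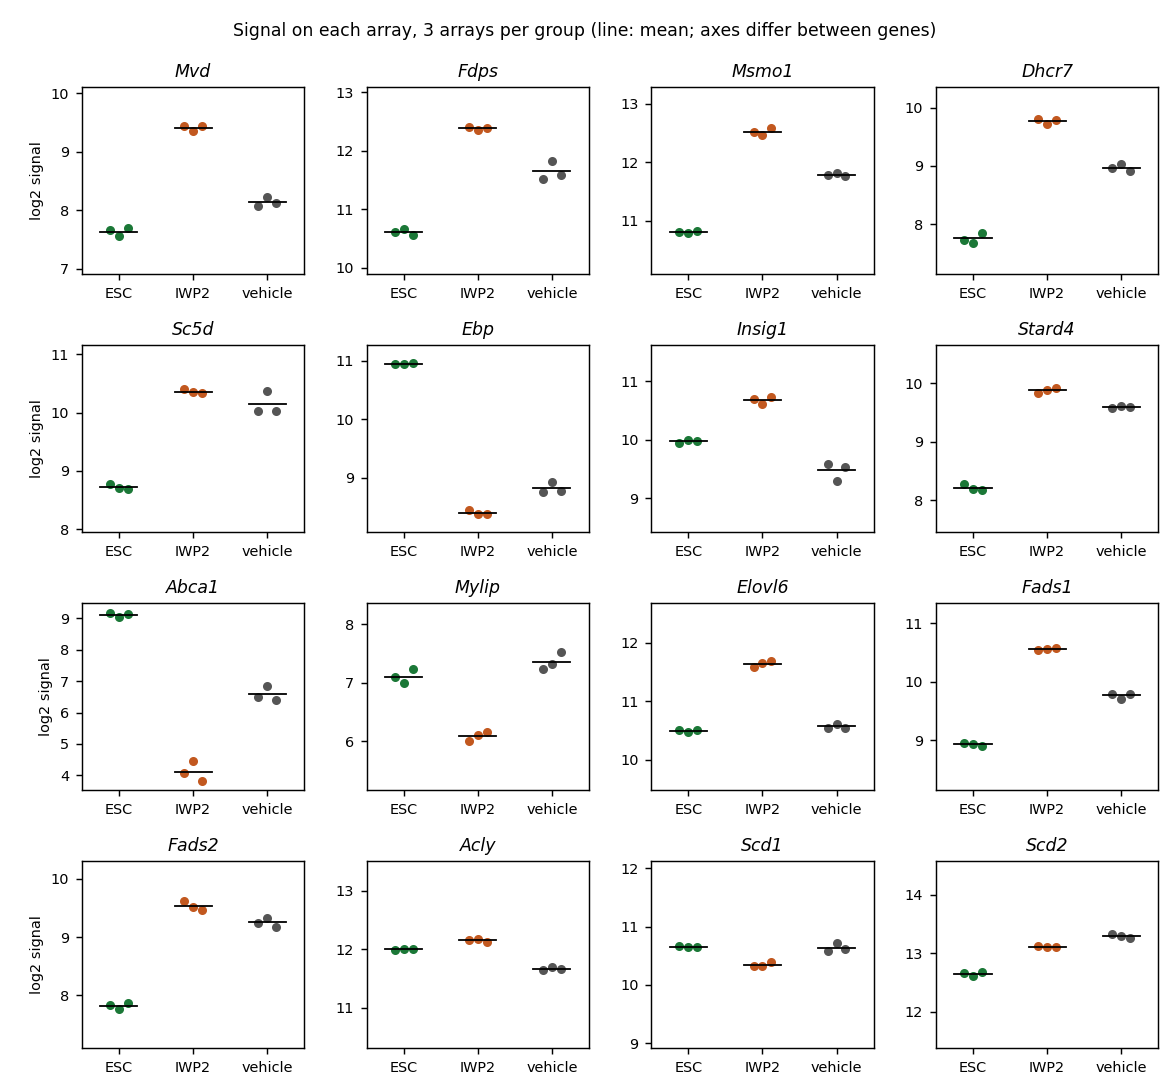
Log2 signal on each of the 9 arrays for 16 members, with ESC, IWP2 and vehicle side by side. Points are arrays and lines are group means, and the axis range differs between genes. The IWP2 arrays lie above the vehicle arrays for Mvd, Dhcr7, Insig1 and Elovl6 and below them for Ebp, Abca1 and Mylip.

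Markers of other cell types and states moved with IWP2 as well. Of 10 endoderm markers 7 fell, with mean log2 signals per array of 4.31 to 4.41 with IWP2 against 7.67 to 7.77 with vehicle. Of 6 primitive streak and mesoderm markers 4 fell and 1 rose, at 4.11 to 4.26 with IWP2 against 6.49 to 6.90 with vehicle. Of 8 fibroblast markers 4 fell and 2 rose, at 5.68 to 5.76 with IWP2 against 6.21 to 6.60 with vehicle. Of 6 neurectoderm markers 2 rose and 1 fell, at 6.69 to 6.84 with IWP2 against 6.66 to 6.79 with vehicle. Of 8 primed markers 2 rose and 4 fell, at 8.90 to 8.96 with IWP2 against 9.54 to 9.64 with vehicle, and of 8 naive markers 1 rose and 3 fell, at 3.84 to 3.97 with IWP2 against 4.01 to 4.17 with vehicle. With IWP2, 1 endoderm, 2 streak and 1 fibroblast marker had a mean at or below the floor, and with vehicle 0, 1 and 0 did. In RNA of whole cultures, fewer cells of a type and less RNA per cell cannot be told apart, and the part of these cells in the differences was not tested. The 3′ minus 5′ signal of the actin control was 0.64 to 0.69 with IWP2 and 0.53 to 0.59 with vehicle.

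ESCs had lower signals of most sterol enzymes than EpiSCs with vehicle. Of 17 enzymes 2 were higher, 13 were lower and 2 did not pass the test, where 38.7% of all genes were called higher and 27.9% lower. The median difference was -0.98 for the sterol enzymes and 0.12 for all genes. With only genes above the median signal, the median of the genes tested was -0.018. Without vehicle replicate 2, 3 enzymes were higher, 13 were lower and the median was -0.93. In the fatty acid arm 1 gene was higher, 5 were lower and 2 did not pass the test, with a median of -0.49, or -0.45 without that array. Over all members 6 were higher and 22 lower, so 28 of 33 were called, against 66.6% of all genes. At least 2-fold differences were called higher for 2 members (Ebp and Abca1; 6.87% of all genes) and lower for 8 (9.63% of all genes). The groups did not overlap for 28 of the 33 members and for 71% of all genes. In ESCs the mean signals per array of the endoderm (4.57 to 4.74), streak (4.25 to 4.31) and fibroblast markers (4.71 to 4.80) were also below their ranges with vehicle, and the actin 3′ minus 5′ signal was 0.64 to 0.66. Their part in the differences was not tested.

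The 4 members lowest by the probe sets used came from both arms and from the transport genes. Fads2 had 7.84, 7.77 and 7.87 in ESCs, against 9.24, 9.33 and 9.18 in vehicle EpiSCs, and was lower by a difference of -1.43 ± 0.065 (SE, n = 3 each; limma adjusted p = 2.47e-08). Sc5d had 8.78, 8.71 and 8.70 in ESCs, against 10.03, 10.37 and 10.03 in vehicle EpiSCs, a difference of -1.41 (adjusted p = 3.47e-07). For both genes all ESC arrays lay more than 1 log2 unit under the lowest vehicle array. Stard4 had 8.27, 8.19 and 8.18 in ESCs, against 9.57, 9.62 and 9.60 in vehicle EpiSCs, a difference of -1.38 (adjusted p = 7.38e-09). A further Stard4 probe set went the other way in this comparison (0.20, adjusted p = 0.0163), while the third was lower (-1.13). Dhcr7 had 7.74, 7.68 and 7.86 in ESCs, against 8.96, 9.03 and 8.92 in vehicle EpiSCs, a difference of -1.21 (adjusted p = 8.34e-08).

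Among the other sterol enzymes, Tm7sf2 (-1.21), Hsd17b7 (-1.20), Pmvk (-1.09) and Fdps (-1.04) were at least 2-fold lower. A dim further probe set was called higher for Fdps (mean 2.22) and for Hsd17b7 (mean 4.52), against lower calls in the probe sets used. Idi1 (-0.996), Hmgcs1 (-0.99), Msmo1 (-0.98), Cyp51 (-0.96), Lss (-0.81), Mvd (-0.51) and Mvk (-0.36) were lower by smaller amounts, and the Mvk call was lost after repeated quantile normalization (-0.23, adjusted p = 0.0804). A further Lss probe set was lower by more (-1.97), and the dimmest was not called (-0.12). Fdft1 was higher by 0.59 (limma adjusted p = 3.33e-05), and Sqle (0.05, interval -0.06 to 0.16) and Nsdhl (0.12, interval -0.10 to 0.33) were not called. Nsdhl was called higher without vehicle replicate 2 (0.24, adjusted p = 0.00998).

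Ebp again ran against most sterol enzymes, here together with Fdft1. The signals of Ebp were 10.94, 10.94 and 10.96 in ESCs, against 8.75, 8.93 and 8.78 in vehicle EpiSCs. The ESC arrays lay within 0.02 of each other and far above the vehicle arrays, by 2.13 ± 0.060 (SE, n = 3 each; limma adjusted p = 8.33e-10), a 4.38-fold difference. Ebp and Nsdhl are the X-linked members. Of 617 X-linked genes 58.7% were higher in ESCs, with a median difference of 0.32, against 38% and 0.11 for 17404 autosomal genes. Xist averaged 9.07 in ESCs, 6.73 with IWP2 and 5.14 with vehicle, and the Y-linked Eif2s3y averaged 2.29 in ESCs, 9.82 with IWP2 and 9.83 with vehicle. ESCs and EpiSCs thus differ in sex chromosome signals, whose part in the Ebp difference was not tested.

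The regulators and transport genes were split between ESCs and vehicle EpiSCs. Abca1 had 9.18, 9.03 and 9.15 in ESCs, against 6.50, 6.84 and 6.39 in vehicle EpiSCs. This was a difference of 2.55 ± 0.16 (SE, n = 3 each; limma adjusted p = 2.78e-07), and both dimmer Abca1 probe sets were called higher as well (1.84 and 0.75). Scap had 8.25, 8.26 and 8.29 in ESCs, against 7.61, 7.74 and 7.79 in vehicle EpiSCs, a difference of 0.55 (adjusted p = 2.59e-05) with no overlap. Insig1 was higher by 0.49, while Insig2 (-0.45) and Srebf1 (-0.31) were lower, and Srebf2 was not called (0.10, interval -0.08 to 0.28). The dimmer Srebf2 probe set was called lower (-0.21, limma adjusted p = 0.0498). Mylip was lower by a small amount (-0.25, adjusted p = 0.0291). Its call was lost without vehicle replicate 2 (adjusted p = 0.051) or 3 (0.105), without ESC replicate 1 (0.0645) or 2 (0.102), and after repeated quantile normalization (-0.10, adjusted p = 0.353) or cyclic loess (-0.20, adjusted p = 0.0913).

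Of the remaining fatty acid genes, Fads1 (-0.84), Scd2 (-0.65), Acaca (-0.54) and Fasn (-0.45) had lower signals in ESCs than with vehicle, and Acly had a higher one (0.32). Scd1 (0.02, interval -0.10 to 0.15) and Elovl6 (-0.08, interval -0.19 to 0.04) were not called. The probe sets of these genes did not give the same answer. The second Scd1 probe set was lower (-0.42) and the dimmest Elovl6 probe set was higher (0.68). When the probe sets of each gene were averaged, Scd1 was -0.20 and Elovl6 0.22.

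Between ESCs and IWP2 EpiSCs, 1 sterol enzyme was higher, 14 were lower and 2 did not pass the test, where 35.2% of all genes were called higher and 26.9% lower. The median was -1.54 for the sterol enzymes and 0.10 for all genes, and 12 of the 14 were at least 2-fold lower, as were 9.4% of all genes. In the fatty acid arm 1 gene was higher and 7 were lower, with a median of -0.75. Over all members 5 were higher and 25 lower, so 30 of 33 were called, against 62.1% of all genes. At least 2-fold differences were called higher for 3 members (Ebp, Abca1 and Mylip; 7.87% of all genes). The groups did not overlap for 33 of 33 members and for 67.1% of all genes. The comparison shares its ESC arrays with ESC minus vehicle and its IWP2 arrays with IWP2 minus vehicle, so the 3 sets of differences are not independent.

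Among the probe sets used, Dhcr7 showed the largest decrease, with 7.74, 7.68 and 7.86 in ESCs, against 9.81, 9.71 and 9.79 with IWP2. The difference was -2.01 ± 0.065 (SE, n = 3 each; limma adjusted p = 1.84e-09). Mvd had 7.66, 7.56 and 7.69 in ESCs, against 9.45, 9.35 and 9.45 with IWP2, a difference of -1.78 (adjusted p = 4.25e-09). For both enzymes every ESC array was far below every IWP2 array. Fdps (-1.77), Pmvk (-1.77), Msmo1 (-1.72), Sc5d (-1.63), Hsd17b7 (-1.59), Tm7sf2 (-1.58), Lss (-1.54), Cyp51 (-1.53), Hmgcs1 (-1.35) and Idi1 (-1.01) were also at least 2-fold lower, and Sqle (-0.68) and Mvk (-0.55) were lower by less. A further Lss probe set was lower by more (-3.25) and the dimmest by less (-0.48). Fdft1 (-0.14, adjusted p = 0.109) and Nsdhl (-0.24, adjusted p = 0.053) did not pass the test. Ebp had 10.94, 10.94 and 10.96 in ESCs, against 8.44, 8.37 and 8.37 with IWP2, a 5.88-fold difference (2.56, adjusted p = 2.29e-10).

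The widest separation of any member was that of Abca1, with 9.18, 9.03 and 9.15 in ESCs, against 4.07, 4.46 and 3.82 with IWP2. The difference was 5.01 ± 0.16 (SE, n = 3 each; limma adjusted p = 1.69e-09), again against signals near the floor. Mylip was 1.02 higher in ESCs (adjusted p = 3.65e-06) and Scap 0.67 higher. Insig1 (-0.71), Insig2 (-0.39), Srebf2 (-0.29) and Stard4 (-1.67) were lower, and Srebf1 was not called (-0.11, interval -0.23 to 0.00). Among fatty acid genes Fads2 (-1.71), Fads1 (-1.63) and Elovl6 (-1.14) were at least 2-fold lower. Acaca (-0.80), Fasn (-0.71) and Scd2 (-0.46) were lower by less, and Scd1 was higher (0.31). The second Scd1 probe set was not called (0.03, limma adjusted p = 0.753). Acly was lower by a small amount (-0.16, adjusted p = 0.0155), and its call was lost without IWP2 replicate 2 (adjusted p = 0.0507) or ESC replicate 1 (0.0509).

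Averaged over each arm, the array means kept the groups apart. Relative to the vehicle mean, the 17 sterol enzymes stood at -0.58 in ESCs and 0.50 with IWP2, and the 8 fatty acid genes at -0.45 in ESCs and 0.33 with IWP2. The SD over 3 arrays of the sterol mean was 0.022 in ESCs, 0.017 with IWP2 and 0.106 with vehicle. Without Ebp, a choice made after its values were seen, the sterol mean stood at -0.75 in ESCs and 0.55 with IWP2. The difference between the arms was not tested.

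**Figure D4:**
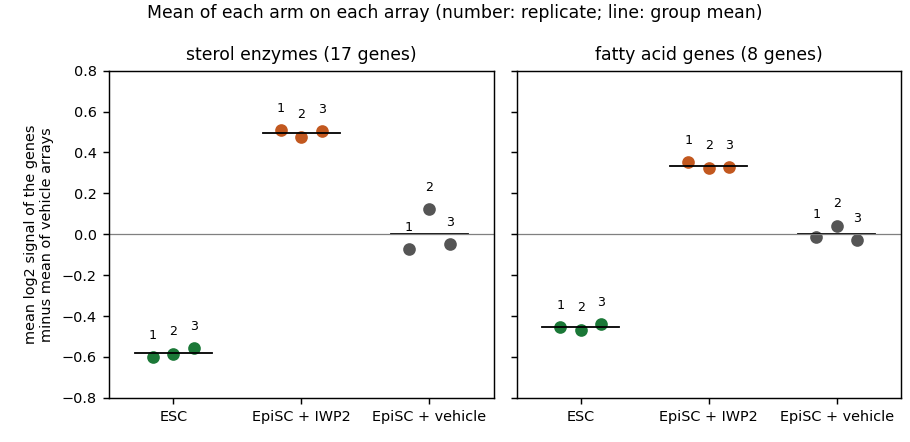
Mean log2 signal of the 17 sterol enzymes (left) and the 8 fatty acid genes (right) on each array, minus the mean of the 3 vehicle arrays. Points are arrays marked by replicate number, and lines are group means. ESC arrays lie lowest and IWP2 arrays highest in both arms, and vehicle replicate 2 stands above the other vehicle arrays in the sterol panel.

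Further probe sets gave a check on the one used for each gene. In all, 23 members had 43 further probe sets. Where both were called, the directions matched in 21 of 21 pairs for IWP2 minus vehicle, 34 of 37 for ESC minus vehicle and 32 of 33 for ESC minus IWP2. The exceptions were Fdps, Hsd17b7 and Stard4 in ESC minus vehicle and Hsd17b7 in ESC minus IWP2. Pairs with a probe set not called stayed out of this check, which for IWP2 minus vehicle covers 21 of the 43 pairs. The pairs left out there include further probe sets of the called genes Fdps, Fdft1, Cyp51, Hsd17b7, Srebf2, Abca1, Acly, Acaca, Scd2 and Fads2.

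**Figure D5:**
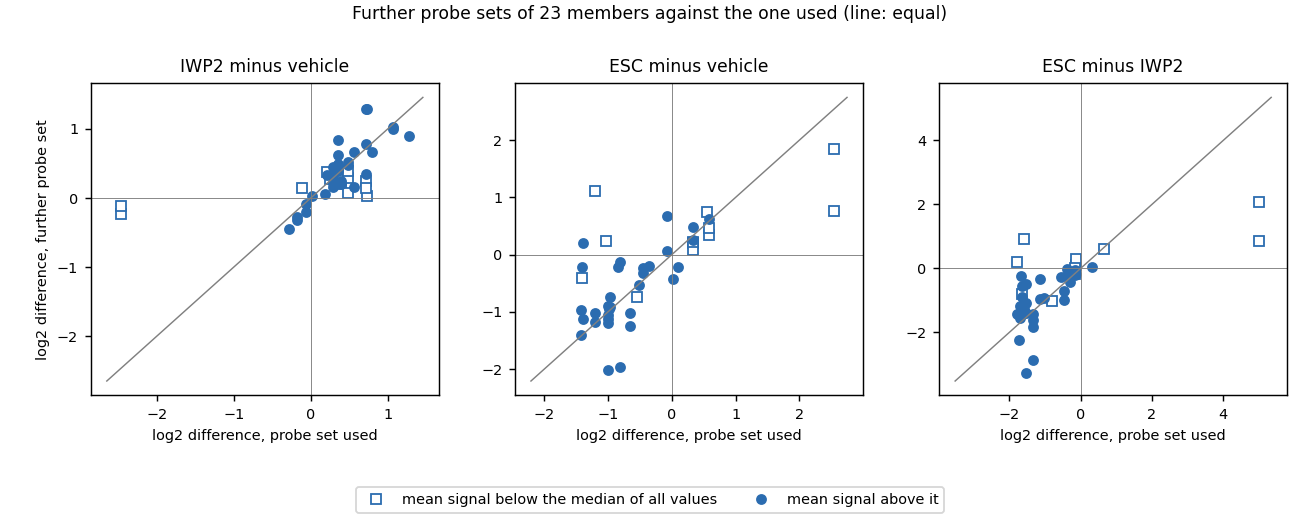
Log2 difference of each of 43 further probe sets (y axis) against that of the probe set used for the same gene (x axis), in the 3 comparisons. Open squares have a mean signal below the median of all values, 5.24, and the diagonal marks equal differences. The open squares far from the diagonal at the edges include those of Abca1.

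Genes of the same pathways outside the 34 were split between the directions. Of 65 measured genes in 4 such lists, 22 were higher and 12 lower in IWP2 minus vehicle, 21 and 28 in ESC minus vehicle, and 18 and 29 in ESC minus IWP2. Over all genes 16.6% were called higher and 16.8% lower in IWP2 minus vehicle, 38.7% and 27.9% in ESC minus vehicle, and 35.2% and 26.9% in ESC minus IWP2, and the counts per list below are to be read against these shares. Genes named in a list are its called genes of smallest p in each direction, not those of largest difference. The median differences of the 65 genes were 0.03, -0.11 and -0.13, beside 0.03, 0.12 and 0.10 for all genes.

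Around fatty acid synthesis, 11 of 33 genes rose and 5 fell with IWP2, where the shares over all genes were 16.6% and 16.8%. Lpin1, a phosphatidate phosphatase, rose by 1.28 (limma adjusted p = 2.09e-06) and Acss2, which makes acetyl-CoA from acetate, by 0.98, while the acyl-CoA synthetase Acsl5 (-0.68) and the elongation dehydratase Hacd3 (-0.32) fell. In ESC minus vehicle 15 were higher, among them Acss2 (1.14) and the desaturase Scd3 (1.32), and 12 lower, among them the fatty acid binding protein Fabp5 (-2.70) and the dehydratase Hacd1 (-1.80). In ESC minus IWP2 11 were higher, among them Acsl5 (1.30) and Hacd2 (0.61), and 12 lower, among them Fabp5 (-2.83) and Hacd1 (-1.60).

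Of 17 genes of sterol storage, transport and oxysterols, 8 rose and 3 fell with IWP2. Aacs, which activates acetoacetate, and the sterol carrier Stard6 both rose by 0.62, and the actin-binding protein Lima1 (-1.07) and the endosomal sterol carrier Stard3 (-0.47) fell. In ESC minus vehicle 5 were higher, among them Lima1 (1.71) and the oxysterol hydroxylase Cyp7b1 (2.42), and 6 lower, among them Npc1 (-1.46) and Npc2 (-0.50), which release cholesterol from lysosomes. In ESC minus IWP2 5 were higher and 6 lower, with Lima1 (2.77), Cyp7b1 (2.55), Npc1 (-1.69) and Npc2 (-0.71) again the named genes.

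The isoprenoid branch had counts with IWP2 near the shares over all genes (16.6% higher and 16.8% lower). Of its 8 genes 2 rose, the farnesyltransferase subunit Fnta (0.35) and Dhdds (0.20), a dolichol synthesis enzyme, and 1 fell, the ubiquinone synthesis gene Pdss2 (-0.29). ESCs had a higher signal of Fntb, the other farnesyltransferase subunit, than vehicle EpiSCs (1.43), and lower signals of 5 genes, among them the geranylgeranyl diphosphate synthase Ggps1 (-1.58) and Coq2 (-1.31) of ubiquinone synthesis. In ESC minus IWP2 Fntb (1.36) was higher and 5 genes were lower, among them Ggps1 (-1.52) and Coq2 (-1.13).

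Among 7 further genes of SREBP processing and turnover, the protease gene Mbtps2, which releases SREBP from the membrane, rose with IWP2 (0.44, limma adjusted p = 0.00192). The 3 that fell included the ubiquitin ligase gene Rnf145 (-0.22) and Ufd1 (-0.26), a gene of endoplasmic reticulum protein degradation. In ESC minus vehicle 5 of the 7 were lower, among them Rnf145 (-1.37) and the ligase gene Rnf139 (-0.87). In ESC minus IWP2 Ufd1 was higher (0.37) and 6 were lower, again with Rnf145 (-1.15) and Rnf139 (-0.83).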

How the data were processed

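Per the labels' protocols, biotin-labelled cRNA made from total RNA of 9 cultures was measured on Mouse Genome 430 2.0 arrays of Affymetrix. The authors deposited log2 values, made with RMA and limma per the submitters' processing notes, which give no versions. RMA makes the arrays' distributions alike, so it would hide a change in the RNA content of whole cells. In the deposited values the distributions were close but not equal. Array medians were 5.22 to 5.26, lower quartiles 3.66 to 3.80 and upper quartiles 7.29 to 7.45. Gene symbols came from the platform annotation: 34945 probe sets had 1 symbol, 932 several and 9160 none, and 64 controls were left out. Group means were fitted by lmFit and eBayes of limma 3.58.1 under R 4.3.3 (residual degrees of freedom 6, moderated to 9.58; two-sided tests, Benjamini-Hochberg over 18193 genes). The median SE of a difference was 0.082, and 3 arrays per group limit the precision. The script was tested on simulated data.

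Members and lists were chosen with earlier results of these data known. All members are named; of the 65 other pathway genes, up to 2 called genes of smallest p per list, direction and comparison are named. Most text goes to the 4 called members with the largest differences in each direction. Promoter windows came from the RefSeq table (27 members matched, first window per gene). Alternatives covered the choice of probe sets, a low-signal filter, an offset, normalization, the variance model, the arrays fitted, a replicate block, a stricter threshold and leaving out each array. The labels do not say that replicate numbers mark a shared batch, so the numbers were not taken as pairs. Same-numbered IWP2 and vehicle arrays had correlations of deviations between -0.0596 and 0.0507, which cannot settle whether the cultures were paired. Scan dates were not used here.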

Additional observations from a re-analysis of the deposited data

How the results depend on the processing

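Of the members called, 24 of 28 in IWP2 minus vehicle, 26 of 28 in ESC minus vehicle and 29 of 30 in ESC minus IWP2 kept their call and direction under each alternative run, up to 17 per comparison. The calls lost under some alternative were those of Nsdhl, Hsd17b7, Srebf1 and Scd2 in IWP2 minus vehicle, Mvk and Mylip in ESC minus vehicle, and Acly in ESC minus IWP2. Of the members not called, 1 of 5, 4 of 5 and 3 of 3 in these comparisons were called under some alternative. Scd1 (-0.20) and Elovl6 (0.22) changed sign in ESC minus vehicle when all probe sets of a gene were averaged, which left 2 fatty acid genes called higher instead of 1. At an adjusted p under 0.01, IWP2 minus vehicle had 1 fatty acid gene lower instead of 2, and 1847 genes higher and 2039 lower over all genes instead of 3029 and 3065. With only genes above the median signal, ESC minus vehicle had 4193 genes higher and 4550 lower, or 48% of calls higher, against 7045 and 5078 (58.1%) over all genes. Fewer genes were tested there, and why the split moved was not tested, nor were the causes of the other changes.

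Leaving out each replicate in turn gave, in IWP2 minus vehicle, 12 to 14 sterol enzymes higher and 1 lower, 6 fatty acid genes higher and 1 to 2 lower. In ESC minus vehicle it gave 2 to 3 sterol enzymes higher and 13 lower, and in ESC minus IWP2 14 sterol enzymes and 6 to 7 fatty acid genes lower. With a replicate block, the sterol enzymes called lower in ESC minus IWP2 numbered 15 in place of 14 through Nsdhl (adjusted p = 0.0305), IWP2 minus vehicle had 13 higher and 1 lower as without it, and no other call of a member changed. Same-numbered arrays did not deviate together, which cannot show whether the cultures were paired. The labels do not say so, and the block is therefore only an alternative.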
